A study of Mus musculus with 18 samples.

Results

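The transport machinery of the retinal pigment epithelium (RPE) was examined through 9 genes of ion channels, pumps, cotransporters and a water channel, chosen by gene symbol from the 52636 genes of the count table. The members were *Best1*, *Clcn2*, *Kcnj13*, *Slc12a2*, *Slc4a4*, *Car14*, *Atp1b1*, *Atp1b2* and *Aqp1*. The rule that chose them is a list of symbols and uses no threshold on any value. RNA-seq was performed on RPE of C57BL/6 mice at postnatal day 14 in 6 groups of 3 libraries, each made from both eyes of 1 mouse. Uninjected eyes received no vector. All other eyes were injected at birth with AAV8, an adeno-associated virus. The GFP group carried AAV8-Best1-GFP, and the nSrebp2 group carried AAV8-Best1-nSrebp2, which encodes the N-terminal, nuclear form of SREBP2, the main transcription factor of sterol synthesis genes. The Laczsh (ctrl sh), Lrp2sh1 and Lrp2sh2 groups carried mCherry with a hairpin in place of GFP. Laczsh is the control hairpin, and the other hairpins target *Lrp2*, the endocytic receptor megalin. All vectors used the promoter of *Best1*, which restricts expression to the RPE, so *Best1* is at once a member and the source of the vectors' promoter. The count table does not separate reads of the gene from reads of any *Best1* sequence in the vectors.

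The RPE is a pigmented epithelium between the photoreceptors and the choroid, the vascular layer behind the retina. It moves chloride, potassium, bicarbonate and water from the subretinal space towards the blood, which holds the retina in place and buffers the ions that photoreceptors release and take up. The Na+/K+-ATPase lies on the apical side of this epithelium, facing the photoreceptors, unlike in most epithelia, and drives this transport. *Slc12a2* (NKCC1) takes up chloride with sodium and potassium at the apical side, *Kcnj13* (Kir7.1) returns potassium there, and chloride leaves through basolateral channels, among which are BEST1 and CLC-2, the product of *Clcn2*. *Slc4a4* (NBCe1) carries sodium with bicarbonate, and *Car14* encodes a membrane-bound carbonic anhydrase that interconverts carbon dioxide and bicarbonate. Mutations of human *BEST1* cause vitelliform macular dystrophy, and mutations of *KCNJ13* cause retinal degenerations.

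Positions are given in GRCm38 with the gene models of GENCODE M21. *Best1* is at chr19:9985174-10001633 on the minus strand and *Kcnj13* at chr1:87386363-87394729 on the minus strand. *Kcnj13* lies within *Gigyf2* on the opposite strand, and 623 of its 1270 exon bases overlap *Gigyf2*. *Atp1b1* is at chr1:164437109-164458355 (minus strand) and shares 575 exon bases with *Nme7*. *Car14* is at chr3:95897768-95904691 (minus strand) and shares 445 exon bases with *Aph1a*. *Clcn2* is at chr16:20702964-20717746 (minus strand) and shares 85 exon bases with *Fam131a* and 82 with *Polr2h*. *Slc4a4* is at chr5:88886818-89239653 (plus strand), *Aqp1* at chr6:55336432-55348555 (plus strand) and *Atp1b2* at chr11:69599736-69605942 (minus strand). The exons of *Best1*, *Slc12a2*, *Slc4a4*, *Aqp1* and *Atp1b2* overlap no other gene. All overlaps are with genes on the opposite strand, and whether strand was used in counting is not given in the sources used here, so the counts of *Kcnj13*, *Clcn2*, *Atp1b1* and *Car14* are uncertain to that extent. None of the 5 overlapping genes passed the test in any of the 7 comparisons below, and the adjusted *P* nearest to the threshold was 0.0508, for *Aph1a* in Lrp2sh2 versus Lrp2sh1 (edgeR).

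The 250 bases before the RefSeq start (GRCm38.p6, 5′ to 3′ on the gene's strand) are shown for 4 genes, *Best1* because its promoter drives the vectors, *Atp1b1* and *Car14* because they moved most between groups, and *Kcnj13* as the potassium channel. Capitals mark matches to 4 motifs searched on both strands: TAATCC, a core bound by OTX factors, CATGTG and CACGTG, E-box forms bound by MITF and, for the latter, also by SREBP factors, and GTGGGG, which resembles a sterol regulatory element. The windows of *Best1* and *Car14* each hold 1 TAATCC, at 227 and 61 bases before the start, and that of *Kcnj13* holds 1 CATGTG on its reverse strand (printed as CACATG), at 112 bases. The window of *Atp1b1* holds none of the 4 motifs. Of all 32851 RefSeq promoter windows of this length, 6.25% hold TAATCC, 12.3% CATGTG, 6.02% CACGTG and 25.5% GTGGGG. Of the other members with an entry, *Clcn2* and *Aqp1* each hold 1 GTGGGG on the reverse strand, at 141 and 248 bases, and *Slc4a4*, with 2 entries, holds none of the motifs. *Atp1b2* and *Slc12a2* have no entry.
Best1 (chr19:10001634-10001883, minus strand): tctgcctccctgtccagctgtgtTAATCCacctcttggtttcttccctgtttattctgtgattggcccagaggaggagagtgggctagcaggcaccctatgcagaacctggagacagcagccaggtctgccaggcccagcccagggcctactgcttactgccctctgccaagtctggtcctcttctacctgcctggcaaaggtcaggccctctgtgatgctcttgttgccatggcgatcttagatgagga
Car14 (chr3:95904686-95904935, minus strand): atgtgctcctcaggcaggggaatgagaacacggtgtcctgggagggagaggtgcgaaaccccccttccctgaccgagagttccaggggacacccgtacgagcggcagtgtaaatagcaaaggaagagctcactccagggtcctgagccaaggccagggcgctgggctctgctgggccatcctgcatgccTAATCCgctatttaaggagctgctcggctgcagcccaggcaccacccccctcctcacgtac
Kcnj13 (chr1:87394730-87394979, minus strand): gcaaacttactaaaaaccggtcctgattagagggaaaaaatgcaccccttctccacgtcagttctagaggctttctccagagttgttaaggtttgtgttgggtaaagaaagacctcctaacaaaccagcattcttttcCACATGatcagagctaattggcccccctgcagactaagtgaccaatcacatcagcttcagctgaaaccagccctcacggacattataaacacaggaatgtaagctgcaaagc
Atp1b1 (chr1:164458356-164458605, minus strand): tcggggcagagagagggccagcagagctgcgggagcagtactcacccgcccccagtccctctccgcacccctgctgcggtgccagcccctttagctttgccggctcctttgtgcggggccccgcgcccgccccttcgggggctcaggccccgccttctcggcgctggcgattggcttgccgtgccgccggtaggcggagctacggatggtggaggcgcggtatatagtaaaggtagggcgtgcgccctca

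Levels are given as CPM, counts scaled to a common library size, with TMM scaling over all 18 libraries. Library totals were 8921885 to 13696934 counts. All members were detected in every library, from 27 counts (*Best1*) to 6234 counts (*Slc12a2*) in a library. *Srebf2*, which encodes SREBP2, was at 207 to 236 CPM in nSrebp2 libraries and 82.9 to 113 CPM in GFP libraries, and *Lrp2* was at 29.7 to 43.9 CPM in the libraries of both *Lrp2* hairpins and 87.7 to 167 CPM in Laczsh libraries. Of the RPE markers, *Pmel* and *Mitf* were present in every library, at 1900 to 3210 CPM and 136 to 247 CPM. The visual cycle gene *Rpe65* had a mean of 813 CPM in Uninjected libraries and means of 1.64 to 34.0 CPM in the injected groups. Lower means with every vector were also seen for *Rgr* (1490 CPM against 19.2 to 163), *Lrat* (620 against 7.84 to 172) and *Rlbp1* (490 against 50.2 to 157). *Tyr* (394 against 378 to 518) and *Trpm1* (441 against 388 to 520) had no such fall. *Pmel* had the highest mean of the list in every group, so the summed level shows these falls only in part. Melanocyte markers were also present in every library, and the RPE share of pigment genes was not tested. Uninjected replicate 1 stood apart from its group. Its summed level of the 11 RPE markers was 5404 CPM against 10485 and 11679 CPM in the others, so results against Uninjected libraries are also given without it. By the reads of Y-linked genes, the GFP, Laczsh and Lrp2sh1 libraries were all from females and the nSrebp2 libraries all from males, with 1 male among the Uninjected and 2 males among the Lrp2sh2 libraries. Sex and nSREBP2 therefore cannot be told apart within nSrebp2 versus GFP. The source names of the libraries also number the Uninjected and nSrebp2 libraries before all others. What these numbers stand for is not given. A difference that goes with them cannot be told apart from nSREBP2 in nSrebp2 versus GFP, nor from the vector in GFP or Laczsh versus Uninjected. In bulk RNA, fewer cells of a type and less RNA per cell cannot be told apart either. The eyecup preparation also held RNA of fibroblast markers of the sclera or choroid. These 8 genes summed to 18650.5 to 87258 CPM, above the 11 RPE markers (3383 to 11679 CPM) in every library. Sums of different genes do not measure shares of cells, and the part of other cells in the members' levels was not tested.

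**Figure D1:**
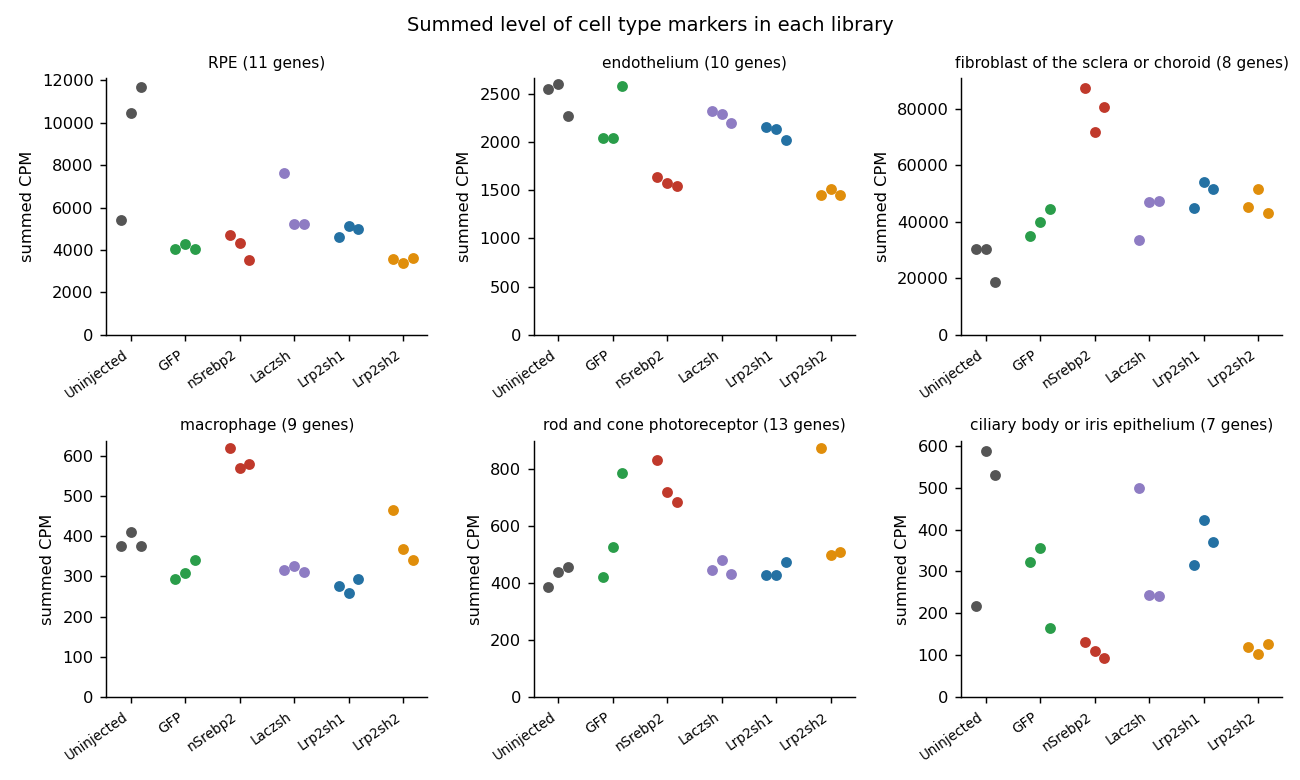
Summed CPM (y axes, linear from 0) of 6 cell type marker lists in each library (points, replicates 1 to 3 from left to right) by group. RPE markers of Uninjected replicate 1 lie at 5404 CPM, apart from the 10485 and 11679 CPM of the others, fibroblast and macrophage markers are highest in nSrebp2 libraries, and endothelium markers are lowest in nSrebp2 and Lrp2sh2 libraries.

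To compare the members with each other, CPM were divided by the length of the merged exons in kb. In Uninjected libraries *Aqp1* had the highest level, 121 ± 10.5 CPM per kb (SD, n = 3). *Car14* followed at 63.4 CPM per kb, *Atp1b2* at 44.1, *Atp1b1* at 42.6, *Kcnj13* at 40.5 and *Slc12a2* at 39.5, and each of these 5 overlapped with its neighbour in this order. *Slc4a4* at 8.75 CPM per kb and *Clcn2* at 7.94 also overlapped with each other. *Best1* was the lowest member, at 2.06 ± 0.531 CPM per kb, below every library of *Clcn2*. The order differed between groups mainly through *Atp1b1*, which had a mean of 114 CPM per kb in Laczsh and 125 in Lrp2sh2 libraries, the highest of the 9 (in Laczsh libraries its range overlapped with that of *Aqp1*), and a mean of 17.1 CPM per kb in nSrebp2 libraries, in the sixth place. *Best1* had the lowest mean in all 6 groups, and its range overlapped with that of *Clcn2* in nSrebp2 libraries only.

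**Figure D2:**
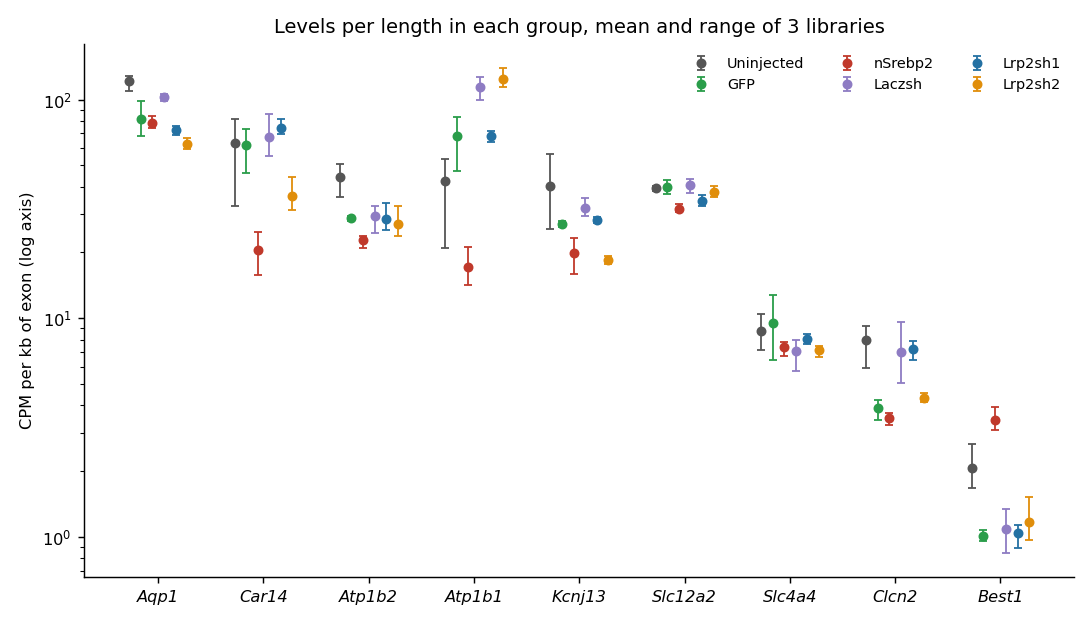
CPM per kb of merged exon (y axis, log) for the 9 members (x axis, in the order of the Uninjected means), by group in color. Points are means and bars span the lowest to highest of 3 libraries, with *Aqp1* at 121 and *Best1* at 2.06 CPM per kb in Uninjected libraries.

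Across the 18 libraries the members differed in how far they moved. *Slc12a2* was the steadiest, with its highest library 1.42-fold above its lowest. *Aqp1*, *Slc4a4*, *Atp1b2* and *Clcn2* spanned 2.16-fold to 2.94-fold, *Kcnj13* 3.54-fold, *Best1* 4.64-fold, *Car14* 5.48-fold and *Atp1b1* 9.76-fold. For 6 of the 9 members the lowest library was an nSrebp2 library. Within groups, 7 of the 9 members, all but *Best1* and *Aqp1*, were lowest in replicate 1 of the Uninjected libraries, and *Atp1b1*, *Car14*, *Kcnj13*, *Clcn2* and *Slc4a4* were all lowest in replicate 3 of the GFP libraries. The share of all genes that were lowest in the same libraries is not given here, so these counts do not set the members apart from other genes. Each member was also tested in 7 comparisons by edgeR's quasi-likelihood test over all genes, in which a gene passed at a Benjamini-Hochberg adjusted *P* under 0.05. *Atp1b1* passed in 4 of the 7 comparisons, *Kcnj13*, *Clcn2*, *Aqp1*, *Atp1b2* and *Car14* in 3 each, *Best1* and *Slc12a2* in 1 each, and *Slc4a4* in 0, by DESeq2 also in 0 and at an unadjusted *P* under 0.05 in 0. Several comparisons share control libraries, so these counts are not independent.

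**Figure D3:**
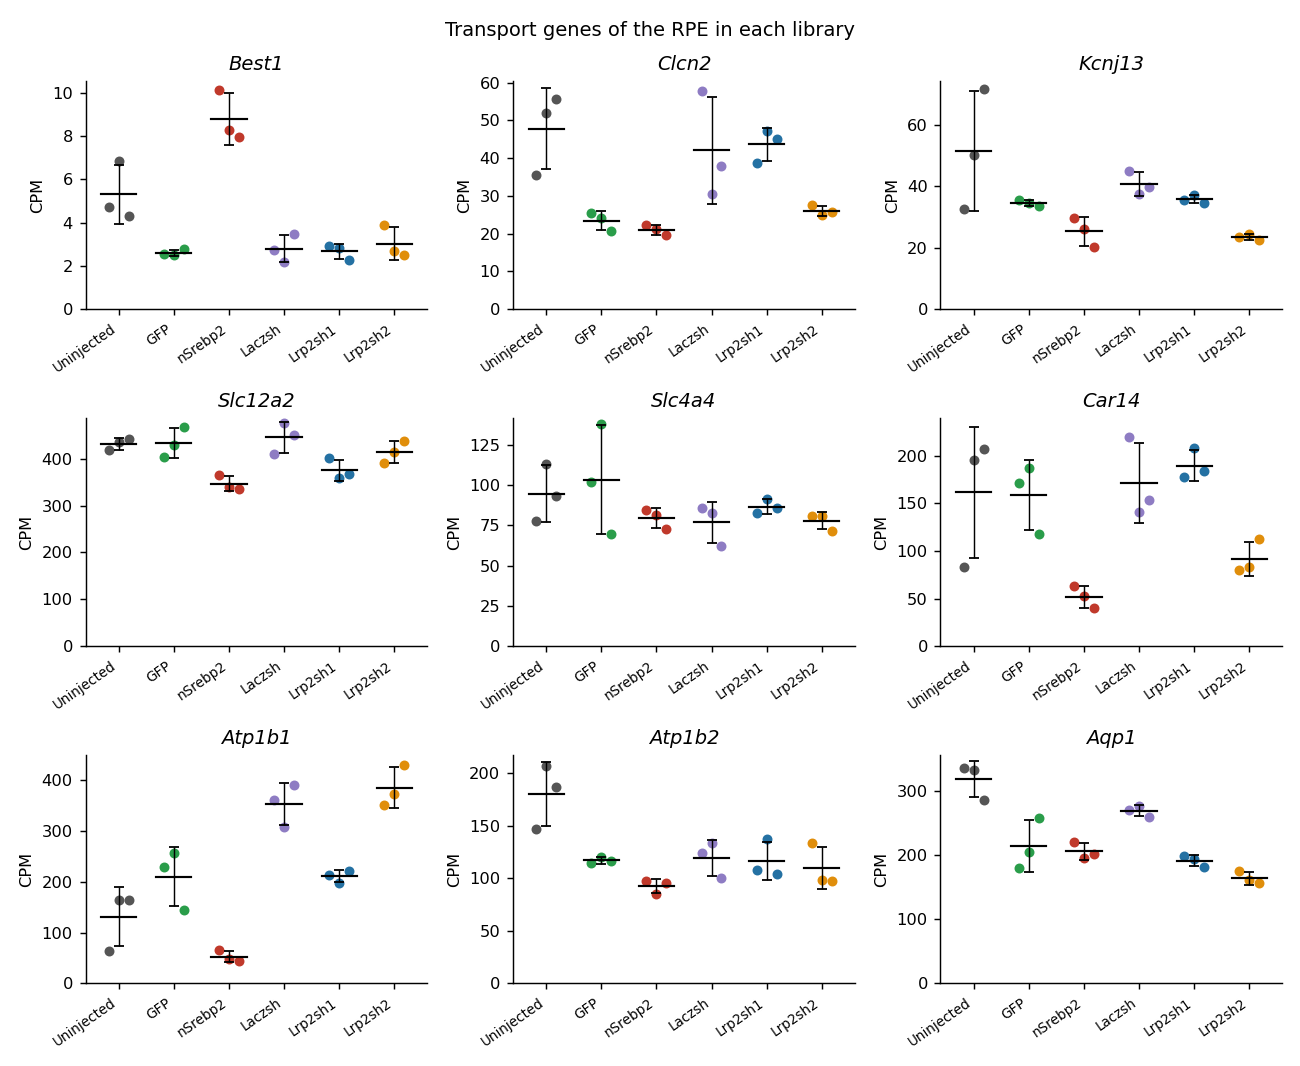
CPM (y axes, linear from 0) of each member in each library (points, replicates 1 to 3 from left to right) by group. Horizontal bars are means and whiskers SD of 3 libraries, with the *Atp1b1* means running from 52.8 CPM in nSrebp2 to 384 CPM in Lrp2sh2 libraries and *Best1* highest in nSrebp2 libraries at 8.79 CPM.

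The effect of nSREBP2 was examined against the GFP vector. *Best1* was higher with nSREBP2, *Atp1b1* and *Car14* were lower by the largest amounts, and *Slc12a2*, *Atp1b2* and *Kcnj13* were lower by smaller amounts. Thus 1 member rose and 5 fell, where 12.6% of all 17927 genes tested rose and 8.47% fell. *Best1*, *Atp1b1* and *Car14* also had an absolute log2FC above 1, which together with the adjusted *P* is the threshold of the study's methods and which 6.67% of all genes passed. The median log2FC of the 9 members was -0.34 and that of all genes -0.02.

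Of the chloride channels, *Best1*, a calcium-activated channel, was at 2.55, 2.48 and 2.78 CPM in GFP libraries and at 10.2, 8.28 and 7.95 CPM in nSrebp2 libraries. Every nSrebp2 library was above every GFP library. The rise was 3.35-fold (log2FC 1.75 ± 0.19 SE, adjusted *P* = 0.000215). *Best1* was also above the Uninjected libraries, which were at 4.74, 6.87 and 4.31 CPM, with a log2FC of 0.70 (adjusted *P* = 0.0412), which did not pass without Uninjected replicate 1 (log2FC 0.63, adjusted *P* = 0.0875). The Uninjected and nSrebp2 libraries, which are numbered before all others, were all at or above 4.31 CPM for *Best1*. All libraries of the other groups were at or below 3.91 CPM. The part of what the numbers stand for was not tested. *Clcn2*, a voltage- and volume-sensitive channel, was at 25.5, 24.1 and 20.7 CPM in GFP libraries and at 22.3, 21.2 and 19.6 CPM in nSrebp2 libraries. These ranges overlapped, and the log2FC was -0.16, with an interval of 2 SE from -0.37 to 0.05 (adjusted *P* = 0.341). *Clcn2* was at 35.6, 52.0 and 55.7 CPM in Uninjected libraries, all above the libraries of both vectors, and its log2FC of nSrebp2 against Uninjected was -1.21 (adjusted *P* = 0.000861), or -1.37 without Uninjected replicate 1 (adjusted *P* = 2.45e-05).

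On the apical side, *Kcnj13* was at 35.5, 34.4 and 33.4 CPM in GFP libraries and at 29.6, 26.1 and 20.2 CPM in nSrebp2 libraries. The groups did not overlap, and the log2FC was -0.45 ± 0.13 (adjusted *P* = 0.0313). That call was lost when GFP replicate 1 or 2 or nSrebp2 replicate 2 or 3 was left out, with adjusted *P* of 0.0591 to 0.0884 and log2FC of -0.48 to -0.31, and in the fit of all 18 libraries without sex (adjusted *P* = 0.101). *Slc12a2*, the chloride-loading cotransporter, was at 404, 429 and 468 CPM with GFP and at 365, 339 and 336 CPM with nSREBP2. It fell by 0.33 on the log2 scale (SE 0.07, adjusted *P* = 0.0115), the smallest fall that passed, with groups that did not overlap. *Slc4a4*, the sodium bicarbonate cotransporter, varied within the GFP group from 69.9 to 138 CPM and lay at 72.5 to 84.7 CPM in nSrebp2 libraries, with a log2FC of -0.37 and an interval of -0.76 to 0.01. Against GFP it passed only where GFP replicate 3 was left out (log2FC -0.59, adjusted *P* = 0.00692) or low counts were not filtered (adjusted *P* = 0.0432). Against Uninjected libraries it passed only without their replicate 1 (log2FC -0.39, adjusted *P* = 0.0228). *Car14*, the carbonic anhydrase, was at 171, 187 and 117 CPM in GFP libraries and at 63.2, 52.9 and 40.0 CPM in nSrebp2 libraries. All nSrebp2 libraries were below all GFP libraries, and the fall was 3.05-fold (log2FC -1.61 ± 0.19, adjusted *P* = 0.000333).

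The β subunits of the Na+/K+-ATPase, which stabilize the pump and bring it to the membrane, both fell but by unequal amounts. *Atp1b1* was at 228, 256 and 145 CPM with GFP and at 65.4, 48.9 and 44.0 CPM with nSREBP2. The lowest GFP library was more than any nSrebp2 library, and the fall was 3.98-fold (log2FC -1.99 ± 0.20, adjusted *P* = 0.000151). *Atp1b2* was at 114, 121 and 117 CPM with GFP and at 97.1, 85.4 and 95.8 CPM with nSREBP2, a log2FC of -0.34 ± 0.07 (adjusted *P* = 0.00639), which did not pass in the fit of all 18 libraries (adjusted *P* = 0.0895). *Aqp1*, the water channel, which is also known from red blood cells and from endothelium, was at 179.6, 205 and 258 CPM with GFP and at 221, 195 and 202 CPM with nSREBP2. These ranges overlapped and the log2FC was -0.06, with an interval of -0.30 to 0.18 (adjusted *P* = 0.779).

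Other values moved with these differences. All 8 fibroblast markers and all 9 macrophage markers rose in nSrebp2 libraries, to summed levels of 71793 to 87258 CPM against 34904 to 44334 CPM with GFP and of 569.7 to 618 CPM against 295 to 341 CPM, and 8 of 10 endothelium markers fell, to 1543 to 1635 CPM against 2046 to 2588 CPM. No gene of these lists was at 0 in any library. Of the melanocyte markers 3 of 6 fell, to 872 to 977 CPM against 1065 to 1128 CPM, and of the photoreceptor markers 3 of 13 rose, to 687 to 834 CPM against 423 to 789 CPM. Of the 11 RPE markers 1 rose and 3 fell, among them *Otx2*, a transcription factor of the RPE (mean 30.3 CPM against 97.8 CPM), and their summed level was 3547 to 4723 CPM with nSREBP2 and 4060 to 4279 CPM with GFP. The 7 markers of ciliary body or iris epithelium, whose most abundant gene *Slc4a5* is also a bicarbonate transporter, summed to 93.3 to 133 CPM against 164 to 356 CPM, with *Opn5* listed at 0 in 13 of the 18 libraries. Of the 6 genes tested on this list 1 fell and 0 rose. Most of the sum was *Slc4a5*, with means of 79.2 CPM with nSREBP2 and 235 CPM with GFP. The part of these cells and of sex in the members' differences was not tested within this comparison. In a fit of all 18 libraries with sex as a term, in which sex was estimated from the Uninjected and Lrp2sh2 groups, *Best1* (log2FC 2.24), *Atp1b1* (-2.36), *Car14* (-2.06), *Slc12a2* (-0.42) and *Kcnj13* (-0.88) passed, whereas *Atp1b2* did not (-0.17, adjusted *P* = 0.660).

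Outside the members, 137 further genes of channels, pumps, cotransporters, bicarbonate and proton transporters, carbonic anhydrases and aquaporins were listed, of which 107 were tested here. Of these, 25 rose and 21 fell, where 12.6% of all genes tested rose and 8.47% fell. Among genes with a mean of at least 1 CPM, the largest rises were of *Cacna1b*, a voltage-gated calcium channel (mean 8.03 CPM, against 0.130 CPM with GFP, which is under the 3 counts that a library's depth can set apart from 0), and *Aqp3*, a channel for water and glycerol (61.3 against 1.33 CPM, log2FC 5.60 ± 1.40). The largest fall was of *Clic6*, a chloride intracellular channel protein (29.5 against 160.3 CPM, log2FC -2.44), followed by that of *Atp1b1*. By list, members included, 5 of 17 calcium channel subunits tested rose and 0 fell, 5 of 20 potassium channels rose and 6 fell, and 4 of 13 carbonic anhydrases rose and 5 fell.

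The *Lrp2* hairpins, which lowered *Lrp2* but did not remove it, were each compared with Laczsh for the members' RNA levels in the RPE preparation. With Lrp2sh1, *Atp1b1* and *Aqp1* fell and no member rose (edgeR, with 3 members at an unadjusted *P* under 0.05, all lower, where 19.7% of all genes were under that value), where 3.06% of the 17801 genes tested rose and 2.28% fell. No member passed with an absolute log2FC above 1, as 0.994% of all genes did. With Lrp2sh2, *Aqp1*, *Kcnj13*, *Car14* and *Clcn2* fell and no member rose, where 8.59% of 18089 genes rose and 9.48% fell, and again no member passed with an absolute log2FC above 1, as 4.76% of all genes did. The median log2FC of the members was -0.06 with Lrp2sh1 and -0.11 with Lrp2sh2, and that of all genes -0.01 and 0.01.

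*Aqp1* fell with both hairpins. It was at 271, 277 and 259.7 CPM in Laczsh libraries, at 198, 194 and 181 CPM with Lrp2sh1 and at 175, 161 and 156 CPM with Lrp2sh2. The libraries of both hairpins were all below the lowest Laczsh library. The log2FC was -0.49 ± 0.06 with Lrp2sh1 (adjusted *P* = 0.00205) and -0.70 ± 0.07 with Lrp2sh2 (adjusted *P* = 0.000228), and *Aqp1* passed under all 14 alternatives in each. Endothelium markers were at 2203 to 2326 CPM in Laczsh libraries, 2024 to 2162 CPM with Lrp2sh1, where 1 of 10 fell, and 1449 to 1515 CPM with Lrp2sh2, where 9 of 10 fell. Red blood cell markers summed to 638 to 805 CPM, 477 to 598 CPM and 351 to 440.5 CPM in the same order, with 1 and 5 of 5 genes falling. The part of these cells in the fall of *Aqp1* was not tested.

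*Atp1b1* differed between the hairpins. It was at 360.5, 307 and 390.2 CPM in Laczsh libraries, at 213, 197 and 220.4 CPM with Lrp2sh1 and at 351, 372 and 429 CPM with Lrp2sh2. All Lrp2sh1 libraries were below all Laczsh libraries, whereas those of Lrp2sh2 overlapped with Laczsh. The log2FC was -0.75 ± 0.09 with Lrp2sh1 (adjusted *P* = 0.00198) and 0.13 with Lrp2sh2, with an interval of -0.07 to 0.34 (adjusted *P* = 0.410). In the fits of all 18 libraries, with and without sex as a term, the call with Lrp2sh1 was lost at an unaltered size (adjusted *P* = 0.114 and 0.124, log2FC -0.74 in both). In Uninjected libraries *Atp1b1* was at 64.5, 165 and 164 CPM, below all Laczsh and all Lrp2sh1 libraries. Against Uninjected libraries its log2FC with Lrp2sh1 was 0.67 (edgeR, adjusted *P* = 0.107). Without Uninjected replicate 1 it was 0.35 and passed as higher (adjusted *P* = 0.00885), so the direction depended on the control. Against Laczsh, *Atp1b2* did not pass with either hairpin, with intervals of -0.29 to 0.20 and -0.39 to 0.16.

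*Kcnj13*, *Car14* and *Clcn2* fell with Lrp2sh2. *Kcnj13* was at 45.0, 37.3 and 39.5 CPM in Laczsh libraries and at 23.6, 24.6 and 22.6 CPM with Lrp2sh2, without overlap, a log2FC of -0.77 ± 0.09 (adjusted *P* = 0.000572). *Car14* was at 219, 141 and 153 CPM in Laczsh libraries and at 79.7, 83.3 and 112 CPM with Lrp2sh2, without overlap, a log2FC of -0.89 ± 0.17 (adjusted *P* = 0.00700). *Clcn2* was at 57.8, 30.5 and 38.0 CPM in Laczsh libraries and at 27.5, 24.8 and 25.7 CPM with Lrp2sh2. Its groups did not overlap but the Laczsh libraries were spread, and the log2FC of -0.68 ± 0.19 (adjusted *P* = 0.0381) fell to -0.40 (adjusted *P* = 0.0502) without Laczsh replicate 1. The call was also lost without Laczsh replicate 3 or any 1 of the Lrp2sh2 libraries, with adjusted *P* of 0.0695 to 0.120. With Lrp2sh1 the same genes had log2FC of -0.18 (*Kcnj13*), 0.15 (*Car14*) and 0.05 (*Clcn2*), and none passed. Without Laczsh replicate 1, *Car14* passed as higher with Lrp2sh1 (log2FC 0.36, adjusted *P* = 0.0182) and *Slc12a2* as lower (log2FC -0.31, adjusted *P* = 0.0202).

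The Laczsh libraries were all from females, and the only female Lrp2sh2 library was replicate 1. It was at 23.6 CPM for *Kcnj13*, 79.7 CPM for *Car14*, 27.5 CPM for *Clcn2* and 175 CPM for *Aqp1*. Since the groups did not overlap for these genes, its place below all Laczsh libraries was fixed in advance. The part of sex was not tested with this 1 library. In the fit of all 18 libraries with sex as a term, sex was estimated from the Uninjected and Lrp2sh2 groups. There *Kcnj13* (log2FC -1.06), *Car14* (-1.20), *Clcn2* (-0.78) and *Aqp1* (-0.60) each passed, with adjusted *P* of 0.00196 to 0.0308 (edgeR). Of the 11 RPE markers 5 fell with Lrp2sh2, to a summed 3383 to 3631 CPM against 5202 to 7620 CPM in Laczsh libraries, and 1 of 11 fell with Lrp2sh1, at 4634 to 5111 CPM. With Lrp2sh2, 9 of 13 photoreceptor markers rose (499 to 875 CPM against 432 to 483 CPM), 4 of 6 melanocyte markers fell (753 to 865 CPM against 1015 to 1196 CPM), and 3 of 8 fibroblast markers rose. The part of these cells in the members' differences was not tested. *Slc12a2*, *Slc4a4* and *Best1* did not pass with either hairpin. *Best1* was at 2.76, 2.19 and 3.46 CPM in Laczsh, 2.92, 2.81 and 2.30 CPM in Lrp2sh1 and 3.91, 2.68 and 2.51 CPM in Lrp2sh2 libraries, with intervals of the log2FC of -0.53 to 0.42 and -0.40 to 0.67. Its low counts, 27 to 49 in a library of these groups, limit this comparison. *Slc12a2* was at 409.7, 476 and 451 CPM in Laczsh libraries, at 401, 358 and 368 CPM with Lrp2sh1 (log2FC -0.25, adjusted *P* = 0.0959) and at 391, 414 and 438 CPM with Lrp2sh2 (log2FC -0.09, adjusted *P* = 0.468).

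The hairpins were then compared with each other, which tests whether their effects against the shared Laczsh control differed. *Atp1b1* was higher with Lrp2sh2 than with Lrp2sh1, and *Car14*, *Clcn2*, *Kcnj13* and *Aqp1* were lower. This is 1 member higher and 4 lower, where 10.2% of 17975 genes were higher and 12.3% lower. The groups did not overlap for any of these 5 genes, which the test had picked, so this is not separate support. The share of all genes without overlap is not given here. *Car14* was at 177, 208 and 184 CPM with Lrp2sh1, all above the 79.7 to 112 CPM of Lrp2sh2 (log2FC -1.04 ± 0.12, adjusted *P* = 0.000250). *Clcn2* was at 38.6, 47.2 and 45.1 CPM with Lrp2sh1, all above the 24.8 to 27.5 CPM of Lrp2sh2 (log2FC -0.74 ± 0.09, adjusted *P* = 0.000319). *Kcnj13* was at 35.6, 37.0 and 34.6 CPM with Lrp2sh1, all above the 22.6 to 24.6 CPM of Lrp2sh2 (log2FC -0.59 ± 0.07, adjusted *P* = 0.000415). *Atp1b1* differed by 0.87 ± 0.08 (adjusted *P* = 6.04e-05) and *Aqp1* by -0.22 ± 0.06 (adjusted *P* = 0.0383). With sex as a term, *Atp1b1* (log2FC 0.63, adjusted *P* = 0.179) and *Aqp1* (log2FC -0.11, adjusted *P* = 0.630) no longer passed, and *Aqp1* was also lost without Lrp2sh1 replicate 1 or 2 or Lrp2sh2 replicate 2 or 3, with adjusted *P* of 0.104 to 0.131. *Lrp2* itself was at 29.7 to 42.8 CPM with Lrp2sh1 and 34.5 to 43.9 CPM with Lrp2sh2, ranges that overlapped. In this comparison all 10 endothelium markers and 6 of 11 RPE markers were lower with Lrp2sh2, and 9 of 13 photoreceptor and 6 of 9 macrophage markers were higher. The markers of ciliary body or iris epithelium, led by *Slc4a5*, summed to 103 to 127 CPM with Lrp2sh2, below the 316 to 422 CPM of Lrp2sh1 and the 242 to 499 CPM of Laczsh libraries. Between the hairpins only 1 of 5 genes tested on this list was lower, *Slc4a5* (mean 79.1 against 338 CPM), and 0 were higher. The difference in the sum is therefore mainly that of 1 gene. The part of these cells was not tested.

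**Figure D4:**
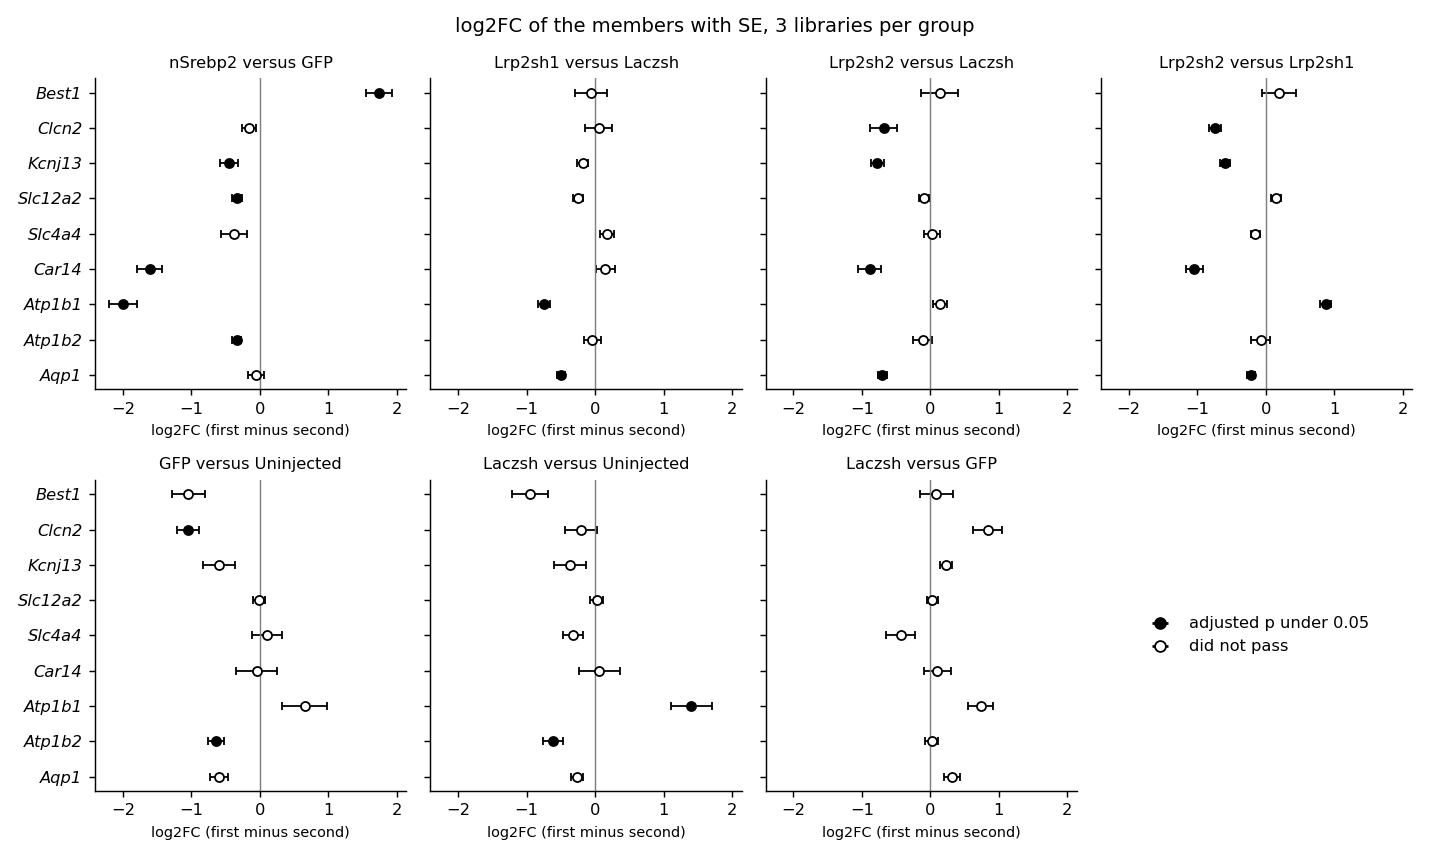
log2FC of each member (x axes, first group minus second) in 7 comparisons of 3 against 3 libraries, with bars of 1 SE. Filled points passed at an adjusted *P* under 0.05, among them *Atp1b1* at -1.99 and *Best1* at 1.75 in nSrebp2 versus GFP and *Car14* at -1.04 in Lrp2sh2 versus Lrp2sh1.

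Among the further transport genes, 3 of 103 rose and 7 fell with Lrp2sh1, and 10 of 108 rose and 26 fell with Lrp2sh2. Of all genes tested, 3.06% rose and 2.28% fell with Lrp2sh1, and 8.59% rose and 9.48% fell with Lrp2sh2. *Kcne2*, an auxiliary subunit of potassium channels, had the largest fall with both hairpins, from a mean of 3.93 CPM to 0.441 CPM with Lrp2sh1 (log2FC -3.14) and 0.710 CPM with Lrp2sh2 (log2FC -2.44). *Car3*, a cytosolic carbonic anhydrase, fell with Lrp2sh1 (log2FC -1.26), and *Fxyd6*, a regulator of the Na+/K+-ATPase, and *Kcnj5*, an inward rectifier channel, rose (log2FC 0.43 and 1.19). With Lrp2sh2, *Slc16a8*, the basolateral lactate transporter of the RPE, fell from 114 to 21.1 CPM (log2FC -2.43), and the calcium channel subunits *Cacna1f* and *Cacna2d4*, both known from photoreceptors, rose (log2FC 2.89 and 2.78). By list, members included, 6 of 13 carbonic anhydrases, 8 of 19 bicarbonate and proton transporters and 7 of 21 chloride channels fell with Lrp2sh2, while 0, 2 and 2 rose. Between the hairpins, 18 of 108 were higher with Lrp2sh2 and 25 lower, where 10.2% of all genes tested were higher and 12.3% lower. *Slc4a5*, a sodium bicarbonate cotransporter, was among the largest differences (79.1 against 338 CPM, log2FC -2.09), together with *Slc16a8* (log2FC -2.15), *Cacna1f* (log2FC 3.44) and *Cacna2d4* (log2FC 2.59).

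Each control vector was compared with Uninjected eyes to show the levels without any vector. With GFP, *Clcn2* and *Atp1b2* fell and no member rose, where 0.662% of 17837 genes rose and 1.82% fell. *Clcn2* was at 25.5, 24.1 and 20.7 CPM against 35.6, 52.0 and 55.7 CPM, without overlap (log2FC -1.05 ± 0.17, adjusted *P* = 0.0165). *Atp1b2* was at 114, 121 and 117 CPM against 147, 207 and 187 CPM, without overlap (log2FC -0.64 ± 0.11, adjusted *P* = 0.0254). Without Uninjected replicate 1 both passed (log2FC -1.22 and -0.76) and *Kcnj13* passed as well (log2FC -0.84, adjusted *P* = 0.0154). Without Uninjected replicate 2 or 3 or GFP replicate 1 or 2, no member passed, with adjusted *P* of 0.0589 to 0.0849 for *Clcn2* and 0.0705 to 0.118 for *Atp1b2*, and *Atp1b2* was lost without GFP replicate 3 as well (adjusted *P* = 0.0654). *Best1* and *Aqp1* had groups without overlap and log2FC of -1.04 and -0.59, with adjusted *P* of 0.0630 and 0.0582. In the fit of all 18 libraries, which pools the spread over all groups, they passed with adjusted *P* of 0.00995 and 0.00187. *Aqp1* also passed by DESeq2 (adjusted *P* = 0.00254) and without GFP replicate 3 (log2FC -0.75, adjusted *P* = 0.0256).

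With Laczsh, *Atp1b1* rose and *Atp1b2* fell, where 3.13% of 17822 genes rose and 3.37% fell. *Atp1b1* was at 360.5, 307 and 390.2 CPM against 64.5, 165 and 164 CPM, without overlap (2.65-fold, log2FC 1.40 ± 0.30, adjusted *P* = 0.0321). Without Uninjected replicate 1, the library lowest in *Atp1b1*, its log2FC was 1.08 (adjusted *P* = 0.00589). *Atp1b2* was at 124, 133 and 101 CPM against 147, 207 and 187 CPM (log2FC -0.61 ± 0.14, adjusted *P* = 0.0383) and passed without that library too (log2FC -0.73, adjusted *P* = 0.0185). Without Uninjected replicate 3 or any 1 Laczsh library no member passed (adjusted *P* of 0.0559 to 0.104 for *Atp1b1* and 0.0777 to 0.131 for *Atp1b2*), and without Uninjected replicate 2 *Atp1b2* was lost (adjusted *P* = 0.0874). *Best1* had a log2FC of -0.95 (adjusted *P* = 0.0663), with all Laczsh libraries below all Uninjected libraries. The GFP and Laczsh comparisons share their Uninjected libraries. Of the 11 RPE markers, 6 fell with GFP and 0 with Laczsh by edgeR at an adjusted *P* under 0.05, and their summed level was 4060 to 4279 CPM with GFP, 5202 to 7620 CPM with Laczsh and 5404 to 11679 CPM in Uninjected libraries. The 0 does not show unaltered levels. Laczsh means were below Uninjected means for *Rpe65* (34.0 against 813 CPM), *Rgr* (163 against 1490), *Lrat* (172 against 620), *Rlbp1* (155 against 490) and *Rdh5* (57.2 against 211). They were above them for *Otx2* (193 against 126), *Mitf* (240 against 189) and *Tyr* (518 against 394). The part of this in the members' levels was not tested.

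Between the control vectors themselves no member passed by edgeR, where 2.32% of 18018 genes were higher with Laczsh and 0.361% lower. At an unadjusted *P* under 0.05 there were 4 members, *Clcn2*, *Atp1b1*, *Aqp1* and *Kcnj13*, all higher with Laczsh, where 13.6% of all genes were under that value. Their groups did not overlap, but the share of all genes without overlap is not given here. *Clcn2* was at 57.8, 30.5 and 38.0 CPM against 25.5, 24.1 and 20.7 CPM (log2FC 0.84 ± 0.21, adjusted *P* = 0.0816) and *Atp1b1* at 360.5, 307 and 390.2 CPM against 228, 256 and 145 CPM (log2FC 0.74 ± 0.18, adjusted *P* = 0.0783). With the replicate number as a block, both passed (log2FC 0.80 and 0.77, adjusted *P* = 0.0158 and 0.0478). The labels do not pair these libraries, and the only basis for the block was a correlation of same-numbered libraries in the same data. These calls are therefore not separate support. By DESeq2, *Clcn2* passed (adjusted *P* = 0.000898). Without GFP replicate 3, *Atp1b1* and *Aqp1* passed (adjusted *P* = 0.0371 and 0.0173), and without Laczsh replicate 2, *Clcn2* passed (adjusted *P* = 0.0307).

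Among the further transport genes, 0 of 103 rose and 9 fell with GFP, where 0.662% of all genes tested rose and 1.82% fell. With Laczsh, 3 of 103 rose and 7 fell, where 3.13% of all genes rose and 3.37% fell. With Laczsh against GFP, 7 of 104 were higher and 0 lower, where 2.32% of all genes were higher and 0.361% lower. *Slc16a8* fell from 224 to 21.6 CPM with GFP (log2FC -3.40) and was higher with Laczsh than with GFP (114 CPM, log2FC 2.40). *Car10*, a carbonic anhydrase-related protein, fell with GFP (9.06 to 1.16 CPM, log2FC -2.98). With Laczsh, *Car9*, a membrane carbonic anhydrase, and *Wnk4*, a kinase that controls cation-chloride cotransporters, fell (log2FC -1.37 and -1.34), and *Slc4a10*, a sodium-driven bicarbonate transporter, rose (log2FC 1.45).

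The genes whose pattern was most like each member were taken as those with the smallest mean absolute difference in log2(CPM + 0.5), each gene centered on its own mean, over the 18 libraries among 12358 genes with a mean of at least 5 CPM. Nearest to *Best1* were *Gadd45a* (0.17), *Cd300a* (0.21) and *H2-K1* (0.22), where *Best1* itself deviated from its own mean by 0.52 on average. Nearest to *Atp1b1*, which deviated by 0.83, were *Tmem108* (0.17), *Vat1l* (0.26) and *Lrrc7* (0.29). *Car14* (0.63) was most like *Mfrp* (0.20), *Rbm47* (0.21) and *Sntb1* (0.21), and *Clcn2* (0.45) was most like *Csad* (0.16), *Shank2* (0.16) and *Plce1* (0.17). *Kcnj13* (0.31) was most like *Vegfa* (0.12), *Rasgrp3* (0.13) and *Thrb* (0.14), *Aqp1* (0.29) like *Prkch* (0.12), *Jag2* (0.13) and *Pdgfb* (0.13), and *Atp1b2* (0.26) like *Ptges* (0.12), *Abat* (0.13) and *Stard13* (0.13). *Slc12a2* (0.12) was most like *Irf2bp2* (0.07), *Zhx1* (0.07) and *Recql5* (0.08), and *Slc4a4* (0.18) like *Zhx2* (0.13), *Miga2* (0.14) and *Fbf1* (0.14). No member was among the 3 genes nearest to another member.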

How the data were processed

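RNA was measured in 18 libraries, 3 in each of 6 groups, each from both eyes of 1 mouse. RPE was collected from eyecups after the retina and optic nerve were removed and after papain digestion. The authors sequenced rRNA-depleted directional libraries as paired-end reads, mapped them to GRCm38 with STAR and deposited the raw counts per gene. The gene annotation and the strand setting of the counting are not given in the sources used here.

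Groups were taken from the sample labels. Counts were analysed in R 4.3.3 with edgeR 4.0.16 (filterByExpr, TMM, quasi-likelihood test) on the 6 libraries of each comparison, where the study's methods name DESeq2, which was run as an alternative, and *P* values were adjusted by Benjamini-Hochberg over all genes tested. A gene passed at an adjusted *P* under 0.05, and a stricter call also needed an absolute log2FC above 1. Intervals are the log2FC ± 2 SE. Levels are CPM with TMM factors of all 18 libraries, and levels per length use the merged exons of GENCODE M21, in which 52403 of the 52636 gene IDs were found when the version was left off. Totals were 8921885 to 13696934 counts, and 3 counts, the most that a count of 0 allows, correspond to 0.218 to 0.323 CPM, for counting error only. All pairs of replicates differed by more than sampling noise. Alternatives were DESeq2 1.42.0, its size factors in edgeR, no filter on low counts, fits of all 18 libraries with and without sex as a term, omission of each library in turn, the replicate number as a block, and, for the study's 3 comparisons, a control of Uninjected libraries, to which a control without Uninjected replicate 1 was added after the data were seen. Sex was read from Y-linked genes at a threshold of 10 CPM. Deviations of same-numbered libraries from their group means correlated at 0.150 to 0.322 in Laczsh versus GFP and not above 0.1 for every number in the other comparisons. The labels give no pairing in any comparison, so a fit with the block rests on the number alone. On simulated counts both tools recovered nearly all changed genes, but the share of false calls was above the nominal level, so calls near the threshold are less certain than their adjusted *P* states.

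The members and all lists were chosen with earlier results of these data known. All members were named. From 8 lists of transport genes, the genes named were the 2 largest rises and 2 largest falls per comparison among those that passed with a mean of at least 1 CPM. Some genes that this rule names are not reported here.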

Additional observations from a re-analysis of the deposited data

Results flagged for a closer look

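The effects of the *Lrp2* hairpins, both set against the same Laczsh libraries, differed for 5 members by the direct test of Lrp2sh2 against Lrp2sh1 (edgeR, 3 libraries per group). The difference in log2FC was -1.04 for *Car14*, -0.74 for *Clcn2*, -0.59 for *Kcnj13*, -0.22 for *Aqp1* and 0.87 for *Atp1b1*. In each of these genes all 3 libraries of one hairpin lay on the same side of all 3 of the other. The genes had been picked by the test, so this is not separate support. The Lrp2sh2 group held 1 female and 2 males and the Lrp2sh1 group females only, and with sex as a term *Atp1b1* and *Aqp1* no longer passed.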

How the results depend on the processing

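Every member was recomputed in the study's 3 comparisons and those that passed in the others. Of these log2FC, 396 kept their direction and their side of the threshold, 43 no longer passed, 20 newly passed and 27 reversed. With Uninjected libraries as the control of Lrp2sh1, log2FC turned to 0.67 (*Atp1b1*), -0.15 (*Clcn2*) and -0.14 (*Slc4a4*), and as that of Lrp2sh2 to -0.82 (*Best1*) and -0.30 (*Slc4a4*), where *Car14* lost its call (adjusted *P* = 0.0770). Without Uninjected replicate 1, an alternative chosen after seeing the data, these were 0.35 (*Atp1b1*), -0.31 (*Clcn2*), -0.26 (*Slc4a4*) and -0.0869 (*Car14*) for Lrp2sh1, with 5 members passing, and -0.89 (*Best1*) and -0.42 (*Slc4a4*) for Lrp2sh2, with 7 members passing, where *Car14* passed (log2FC -1.14, adjusted *P* = 0.000698). Of the 5 members that passed in that alternative for Lrp2sh1, *Atp1b1* was higher (edgeR, adjusted *P* = 0.00885), opposite to its call against Laczsh. With sex as a term, *Aqp1* turned to 0.11 in nSrebp2 versus GFP and *Atp1b1* to -0.11 in Lrp2sh2 versus Laczsh. Leaving out single libraries turned the sign of log2FC that had not passed, over ranges of -0.18 to 0.10 (*Aqp1*, nSrebp2 versus GFP), -0.13 to 0.35 (*Clcn2*), -0.17 to 0.0498 (*Atp1b2*) and -0.20 to 0.12 (*Best1*) with Lrp2sh1, and -0.10 to 0.30 (*Best1*) and -0.11 to 0.10 (*Slc4a4*) with Lrp2sh2.

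The number of members that passed in nSrebp2 versus GFP was 6, and 4 in the fit of all 18 libraries. It was 1 in Lrp2sh1 versus Laczsh in the fits of all 18 libraries with and without sex (2 to 4 leaving out libraries). In GFP versus Uninjected it was 4 without a filter and 4 in both fits of all 18 libraries (0 to 3 leaving out libraries). In Laczsh versus Uninjected it was 4 with sex as a term and 0 with the replicate block (0 to 2 leaving out libraries). In Laczsh versus GFP it was 1 by DESeq2, 3 without a filter, 1 in both fits of all 18 libraries, 2 with the replicate block (0 to 2 leaving out libraries), and in Lrp2sh2 versus Lrp2sh1 it was 3 with sex as a term. The causes were not tested. In every comparison the libraries are known to share only a number. Outside Laczsh versus GFP the replicate block changed no count of members that passed but that of Laczsh versus Uninjected.

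The number of all genes that passed was 3770 in nSrebp2 versus GFP (2178 with sex, 2481 to 4097 leaving out libraries), 949 in Lrp2sh1 versus Laczsh (1441 without a filter, 492 with the block, 4354 against Uninjected and 4101 without its replicate 1, 364 to 1298 leaving out libraries), 442 in GFP versus Uninjected (835 by DESeq2, 1093 without a filter, 1722 with all 18 libraries, 1225 with sex, 66 to 740 leaving out libraries), 1157 in Laczsh versus Uninjected (1736, 2870 and 2456 without a filter, with all 18 libraries and with sex, 244 with the block, 140 to 998 leaving out libraries) and 483 in Laczsh versus GFP (939 without a filter, 217 to 430 leaving out libraries). Leaving out libraries gave 2019 to 2727 against 3268 in Lrp2sh2 versus Laczsh and 2626 to 3705 against 4029 in Lrp2sh2 versus Lrp2sh1. *Best1* had 27 to 108 counts in a library, which limits its precision.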
